A study of Mus musculus with 4 samples.

Results

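The genes described here are 10 effector genes of cytotoxic lymphocytes: the granzymes Gzma, Gzmb and Gzmk, the pore-forming protein gene Prf1, the granule membrane gene Nkg7, the interferon gene Ifng, the chemokine gene Ccl5, the receptor gene Klrd1 and the transcription factor genes Eomes and Tbx21. They were taken by symbol from the deposited gene table, and all 10 were found among its 32285 genes. No filter on their values was used to take them from the table, but the set was chosen with earlier results of these data known. They were read as UMI counts, that is counts of distinct captured RNA molecules, in T cell subsets, in NK cells and in each library. The cells that carried most of them were few, 549 T-like and 40 NK-like cells of 15212 kept cells.

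Male C57BL/6N mice aged 10 months gave the cortical tissue. In stroke mice it was dissected to hold the infarct core and roughly 2 mm of cortex beyond it. There were 4 groups, each a single library from a pool of 4 to 5 mice: sham surgery with an isotype control antibody, dMCAO stroke with the isotype control (isotype-treated stroke), dMCAO stroke with anti-VCAM1 and dMCAO stroke with anti-VLA4. Antibodies were given for 10 weeks in every group, so untreated mice were not among these libraries. VCAM1 is an adhesion molecule of activated endothelium, and VLA4 is the leukocyte integrin that binds it. With 1 library in each group, differences between groups are differences between libraries without a replicate check, and 95% intervals cover counting error only. Cells were stained for CD31 and CD45 and dead cells were excluded, and which of the stained cells went into the libraries is not given in the sources used here.

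Cytotoxic T cells and NK cells kill by releasing granules at the contact with a target cell. Perforin opens the membrane, and granzymes, a family of serine proteases, then enter and cleave proteins inside the target. The same cells secrete interferon gamma and chemokines, and the T-box factors encoded by Tbx21 and Eomes control much of this gene programme. Tissue-resident CD8 T cells can persist in brain long after an injury or infection has passed.

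The 4 libraries held 1514 to 6209 kept cells with 9857631 to 33389282 UMIs and a median of 4515 to 5456.5 UMIs per cell. T-like cells numbered 49 in sham, 217 in isotype-treated stroke, 89 under anti-VCAM1 and 194 under anti-VLA4, or 3.24%, 7.66%, 1.91% and 3.12% of kept cells. All 9 T cell markers were detected in T-like cells of every library. Of the T-like cells, 346 had a Cd8a or Cd8b1 UMI and no Cd4 UMI and are called CD8 cells (37, 120, 62 and 127 in the order above). Another 58 had Cd4 without Cd8 UMIs (5, 38, 5 and 10), 141 had neither (7, 56, 22 and 56), and 4 with both were put in no subset. NK-like cells numbered 14, 14, 9 and 3, with 7 or 8 of the 8 NK markers detected in each library. In the NK-like cells, 6, 6, 5 and 1 of the 9 T cell markers were also detected, at a summed level of 249 to 1029 CPM (UMIs of a gene scaled to a common total of the class in that library). That compares with 5727 to 6383 CPM in CD8 cells. The gate used transcripts, and a shallow CD8 cell can miss its Cd8 UMIs: CD8 cells had a median of 4611 UMIs and T-like cells without a Cd8 UMI had 3694.

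The sham and stroke isotype libraries shared 59 cell barcodes, against 1 to 8 in the other pairs of libraries. After filtering 55 remained, and in 51 of these the stroke barcode held under 5% of the UMIs of the sham barcode. In the sham library 1 shared barcode was T-like and 2 were NK-like, and in the stroke isotype library none of them was either. Without them no ratio between libraries of these genes in CD8 cells moved beyond its counting interval, and the same 6 genes passed the test of CD8 cells.

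All 10 genes are protein coding in the GENCODE M21 annotation (GRCm38), matched by gene ID. Gzma lay at chr13:113093825-113100981 and Gzmk at chr13:113171608-113225908, both on the minus strand, 70626 bases apart with 3 annotated genes and no protein-coding gene between them. Gzmb lay at chr14:56258838-56262260 (minus strand) among related granzyme genes, and how reads shared with such relatives were counted is not given in the sources used here. Prf1 (chr10:61297833-61304680) and Ifng (chr10:118441046-118445892) were on the plus strand of the same chromosome. The other spans were chr7:43437073-43438249 (plus) for Nkg7, chr11:83525778-83530518 (minus) for Ccl5, chr6:129591782-129598775 (plus) for Klrd1, chr9:118478212-118486132 (plus) for Eomes and chr11:97098071-97115331 (minus) for Tbx21.

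Promoter windows from 250 bases before to 50 bases after the transcript start were taken from RefSeq (GRCm38.p6) for 8 of the 10 genes, all but Ccl5 and Klrd1, and searched on both strands for the T-box core AGGTGT (reverse ACACCT), the RUNX core TGTGGT (reverse ACCACA) and the AP-1 site TGACTCA (reverse TGAGTCA). The T-box core was in 4 of the 8 windows and in 13.7% of all 32851 windows of this length. The RUNX core was in 4 of the 8 and in 16.8% of all, and the AP-1 site was in 1 of the 8 and in 5.20% of all. No listed match overlapped another. A match is a run of letters and not a measured binding site. The 5 windows with a match are shown because 3 of them (Gzmk, Prf1 and Nkg7) belong to genes that passed the test of CD8 cells and 2 (Gzma and Gzmb) to granzymes with their highest pooled level in NK-like cells. Capitals mark the matches, and each window is read 5′ to 3′ on the strand of the gene.
Gzma: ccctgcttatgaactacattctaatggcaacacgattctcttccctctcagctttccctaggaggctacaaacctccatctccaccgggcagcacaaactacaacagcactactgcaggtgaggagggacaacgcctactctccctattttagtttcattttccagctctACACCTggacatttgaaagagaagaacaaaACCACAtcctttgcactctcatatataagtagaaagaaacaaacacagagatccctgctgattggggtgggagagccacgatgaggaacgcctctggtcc
Gzmb: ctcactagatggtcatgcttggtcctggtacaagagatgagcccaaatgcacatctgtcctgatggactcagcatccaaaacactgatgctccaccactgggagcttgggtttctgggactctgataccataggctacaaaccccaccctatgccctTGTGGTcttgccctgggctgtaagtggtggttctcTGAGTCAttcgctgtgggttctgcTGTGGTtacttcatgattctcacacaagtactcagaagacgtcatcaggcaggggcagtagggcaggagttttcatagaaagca
Gzmk: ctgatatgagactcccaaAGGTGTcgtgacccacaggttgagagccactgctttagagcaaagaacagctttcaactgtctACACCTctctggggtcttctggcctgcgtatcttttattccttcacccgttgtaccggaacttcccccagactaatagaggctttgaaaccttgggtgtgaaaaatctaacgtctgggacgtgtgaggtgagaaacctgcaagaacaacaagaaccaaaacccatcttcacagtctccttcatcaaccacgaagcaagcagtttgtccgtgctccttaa
Prf1: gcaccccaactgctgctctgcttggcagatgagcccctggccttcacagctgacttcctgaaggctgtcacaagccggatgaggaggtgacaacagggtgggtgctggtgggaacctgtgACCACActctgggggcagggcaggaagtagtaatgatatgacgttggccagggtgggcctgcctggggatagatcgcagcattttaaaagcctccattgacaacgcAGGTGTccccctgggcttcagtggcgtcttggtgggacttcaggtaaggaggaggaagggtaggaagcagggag
Nkg7: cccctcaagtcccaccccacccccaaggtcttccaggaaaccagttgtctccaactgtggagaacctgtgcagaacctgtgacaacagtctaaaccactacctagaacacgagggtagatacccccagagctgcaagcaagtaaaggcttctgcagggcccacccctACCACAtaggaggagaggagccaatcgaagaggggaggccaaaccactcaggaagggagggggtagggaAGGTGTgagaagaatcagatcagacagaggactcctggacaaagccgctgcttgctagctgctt
These windows were chr13:113100932-113101231 for Gzma, chr14:56262285-56262584 for Gzmb, chr13:113180916-113181215 for Gzmk, chr10:61297586-61297885 for Prf1 and chr7:43436888-43437187 for Nkg7. The Gzmk window lay inside the longer GENCODE span of that gene. Gzmk held a pair of T-box cores, 232 and 169 bases before the start, and no RUNX core. Gzma had the T-box core and the RUNX core 80 and 50 bases before the start, Prf1 24 and 130, and Nkg7 14 and 83. Gzmb held RUNX cores 93 and 34 bases before the start with the AP-1 site between them at 58. These letters were not in the windows of Eomes, Ifng and Tbx21.

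T-like and NK-like cells together held nearly all UMIs of most of these genes over the 4 libraries. Their share was 97.0% for Gzma, 97.6% for Gzmb, 92.8% for Gzmk, 93.7% for Prf1, 95.3% for Ifng, 95% for Nkg7, 94.0% for Eomes and 89.9% for Ccl5. It was lower for Tbx21 (81.8%) and lowest for Klrd1 (51.3%). For Klrd1, a subunit of the CD94/NKG2 receptors that read nonclassical class I molecules, an unnamed cluster of 247 cells led by Cd209a, Tnip3, Plac8 and Mgl2 held 448 UMIs, or 35.2%. Microglia-like cells added 148 Klrd1 UMIs spread over 137 cells, with at most 3 in any cell. Every Gzmk UMI of the T-like and NK-like cells was in T-like cells, while 76.8% of all Gzma UMIs were in NK-like cells. That share rested on 1 cell with 132 UMIs, and without it NK-like cells held 47 of 101 Gzma UMIs (46.5%). T-like cells held more Gzma UMIs than NK-like cells in isotype-treated stroke (26 against 17) and anti-VCAM1 (6 against 3). In isotype-treated stroke 15 of the 26 came from 1 T-like cell, and the order there rested on it. As a measure of free RNA, after thinning each cell to 1000 UMIs at most 0.378% of microglia-like and 0.124% of endothelial-like cells had a UMI of any of the 10 genes, with Ccl5 the highest in both. Thinned in the same way, 29.1% of CD8 cells had a Gzmk UMI. Median depths before thinning were 4611 UMIs in CD8, 5546 in microglia-like and 4167 in endothelial-like cells.

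**Figure D1:**
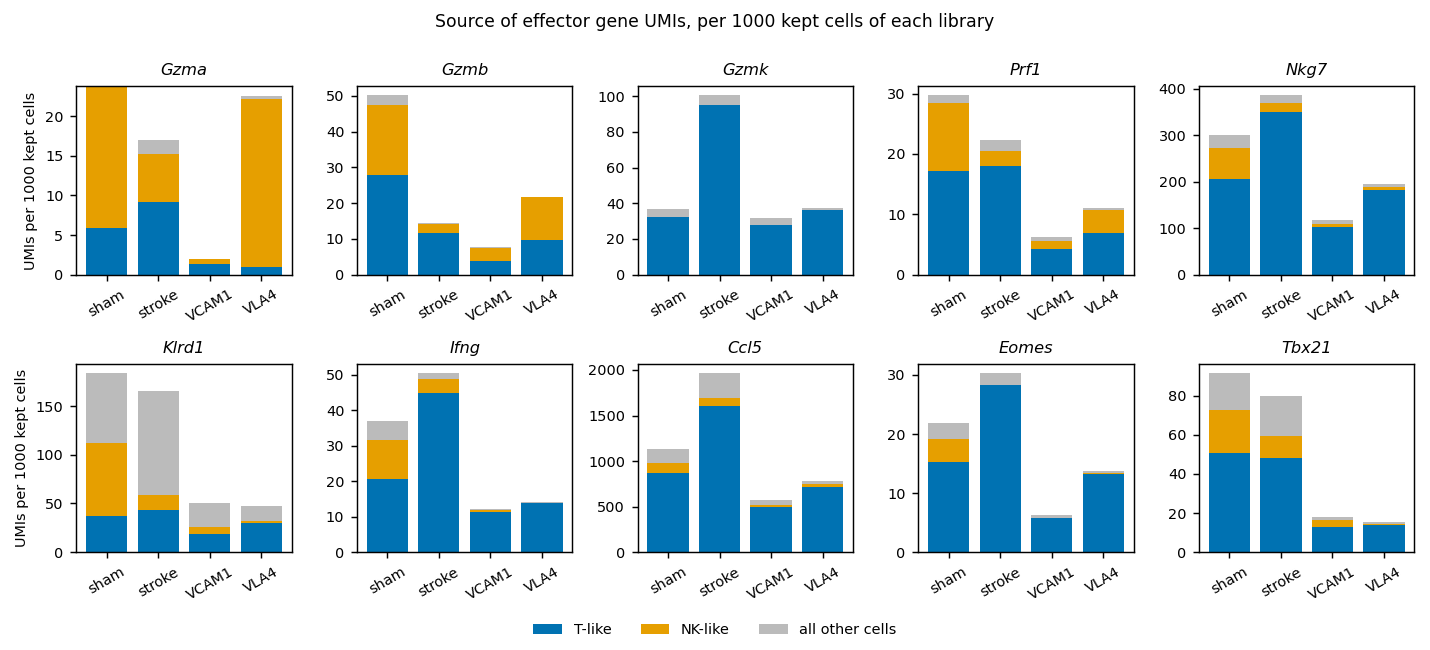
UMIs of each effector gene per 1000 kept cells (y axis) in the 4 libraries (x axis), stacked by T-like, NK-like and all other cells. Gzmk UMIs sat in T-like cells, and Klrd1 had a large share in other cells. Gzma UMIs were mostly in NK-like cells in sham and anti-VLA4 and mostly in T-like cells in the other 2 libraries. In those 2 libraries the T-like part rested on 1 cell with 15 UMIs (isotype-treated stroke) or on few UMIs (anti-VCAM1).

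Per 1000 kept cells, the tissue as sampled held 37.0 Gzmk UMIs in sham, 100.6 in isotype-treated stroke, 32.0 with anti-VCAM1 and 37.5 with anti-VLA4. Ifng was also highest in isotype-treated stroke, at 50.5 against 37.0 in sham, 12.2 with anti-VCAM1 and 14.0 with anti-VLA4. Ccl5 had 1133, 1969, 572 and 781. Prf1 did not peak in stroke: it had 29.7 in sham, 22.2 in isotype-treated stroke, 6.23 with anti-VCAM1 and 11.1 with anti-VLA4. Such totals depend on how many cells of each class were sampled: endothelial-like cells were 36.3%, 23%, 51.4% and 49.2% of kept cells, and their part in the totals was not tested. Prf1 UMIs also came from NK-like cells, with 17 in sham and 7 in isotype-treated stroke, from 14 cells in each. The part of the T-like and NK-like shares in the Prf1 totals was not tested. The values that follow are CPM within a cell class.

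Among the granule genes, Gzmk was the granzyme found in most CD8 cells. It measured 221 CPM in CD8 cells of sham, 335 in isotype-treated stroke, 392 with anti-VCAM1 and 340 with anti-VLA4, and 23 of 37, 80 of 120, 44 of 62 and 83 of 127 CD8 cells had a UMI. Pooled over libraries the order was CD8 (332 CPM, 305 to 361), CD4 (142, 99.4 to 197), cells with neither (129, 101 to 163) and NK-like cells, where 0 of 40 cells had a UMI, which allows a share of up to 7.5%. CD4 cells and cells with neither did not differ beyond their intervals. For NK-like cells the count of 0 allowed a level of up to 12.6 CPM on 3 UMIs, so that CD8 cells were at least 26.3-fold higher over the pooled libraries.

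Gzmb, which cleaves caspases in the target cell, measured 189, 37.9, 46.2 and 84.9 CPM in CD8 cells of sham, isotype-treated stroke, anti-VCAM1 and anti-VLA4. A single sham CD8 cell held 27 of the 41 Gzmb UMIs there, or 65.9%. Pooled, NK-like cells came first (538 CPM, 449 to 640), then CD8 cells (74.4, 61.9 to 88.7), with cells with neither (36.0) and CD4 cells (31.5) not separated. Gzma, a granzyme with trypsin-like activity, was scarce in CD8 cells at 41.5, 18.1, 6.59 and 10.8 CPM from 9, 11, 2 and 6 UMIs. No CD4 cell had a Gzma UMI. In cells with neither Cd8 nor Cd4 the pooled level was 34.2 CPM (20.6 to 53.4), which overlapped that of CD8 cells (16.7, 11.1 to 24.1), and 15 of its 19 UMIs came from 1 cell.

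Prf1 measured 115, 77.5, 62.6 and 59.6 CPM in CD8 cells of the 4 libraries in the same order. Its pooled order was NK-like (223 CPM, 167 to 292), CD8 (73.8, 61.4 to 88.0), neither (25.2) and CD4 (3.94, from 1 UMI), the last pair overlapping. Nkg7, which encodes a granule membrane protein needed for exocytosis, was steadier: 1324, 1351, 1421 and 1778 CPM in CD8 cells. It was highest in CD8 cells (pooled 1501 CPM, 1443 to 1560), followed by NK-like cells (989, 866 to 1123), and 334 of 346 CD8 cells had a UMI.

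**Figure D2:**
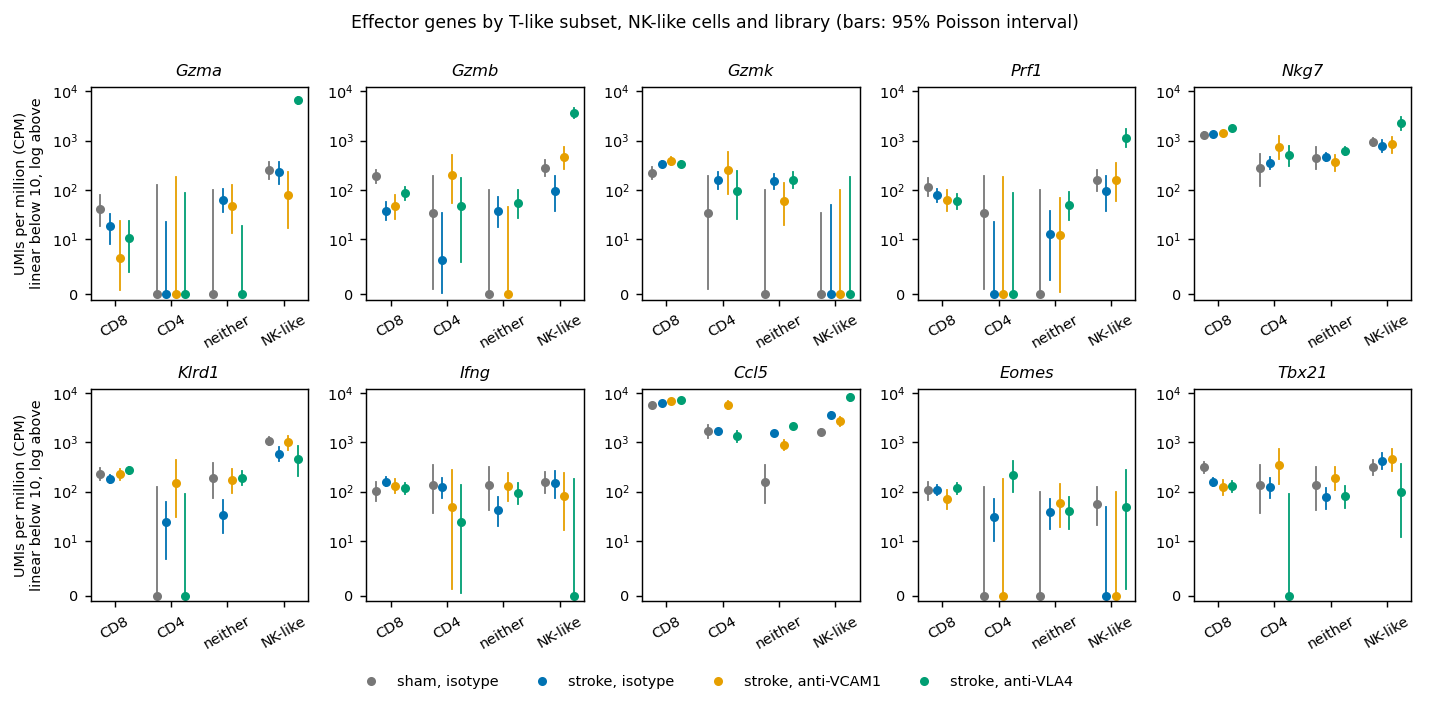
Level of each effector gene in CPM (y axis, linear below 10 and logarithmic above) in CD8, CD4, neither and NK-like cells (x axis), by library, with 95% Poisson intervals. Gzmk was at 0 in NK-like cells of all 4 libraries, and the anti-VLA4 NK-like points for Gzma, Gzmb and Prf1, from 3 cells, stood far above the others.

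The secreted products had 2 patterns. Ccl5, a chemokine that draws in T cells and monocytes, measured 5799, 6380, 7000 and 7187 CPM in CD8 cells and was highest there in sham, isotype-treated stroke and anti-VCAM1. The pooled order was CD8 (6683), NK-like (2961), CD4 (1948) and neither (1536), with no neighbouring intervals overlapping. In single libraries it came close to the CD8 level in the 5 CD4 cells of anti-VCAM1 (5779 CPM) and passed it in the 3 NK-like cells of anti-VLA4 (8166 CPM). Ifng, the macrophage-activating interferon, differed less between classes. It measured 101, 160, 132 and 117 CPM in CD8 cells, and the pooled levels of CD8 (133, 116 to 152), NK-like (130, 88.6 to 185), CD4 (103, 67.0 to 150) and neither (80.9, 59.0 to 108) overlapped from each class to the next, while the intervals of CD8 cells and of cells with neither did not overlap.

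Klrd1 measured 231, 183, 224 and 269 CPM in CD8 cells and came first in NK-like cells (pooled 846 CPM, 733 to 971), ahead of CD8 cells (225, 203 to 249), cells with neither (120, 93.4 to 153) and CD4 cells (27.6, 11.1 to 56.9). The T-box factors differed in their order. Eomes measured 106, 109, 72.5 and 117 CPM in CD8 cells and had its highest pooled level there (105, 89.9 to 121), with CD4 (55.2), neither (39.6) and NK-like cells (29.4) lower and each overlapping the next. Tbx21, which encodes T-bet, measured 314, 158, 122 and 128 CPM in CD8 cells. Its pooled level was highest in NK-like cells (349, 278 to 433), and CD8 (162, 143 to 182), CD4 (122, 83.1 to 173) and neither (98.9, 74.5 to 129) followed, each overlapping the next.

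NK-like cells were few, and 1 of them carried much of the granzyme and perforin RNA. In the 4 libraries their Gzma level was 253, 230, 80.6 and 6573 CPM, their Gzmb level 282, 94.8, 456 and 3685 CPM and their Prf1 level 160, 94.8, 161 and 1145 CPM. The last value in each case came from 3 cells, and in all of these genes it was the highest of the 4. A single NK-like cell of that library, with 9551 UMIs, held 132 Gzma, 73 Gzmb, 22 Prf1, 34 Nkg7 and 141 Ccl5 UMIs. That cell had 58.4% of the Gzma and 26.0% of the Gzmb UMIs of all T-like and NK-like cells. Without it the pooled NK-like levels were 206 CPM for Gzma, 241 for Gzmb and 136 for Prf1.

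Set over CD8 cells on the log2 scale, pooled NK-like levels were 5.42 higher for Gzma (3.87 without the highest cell of each class), 2.84 for Gzmb (2.02), 1.91 for Klrd1 (1.68), 1.58 for Prf1 (0.90) and 1.10 for Tbx21 (1.03). The difference was -0.03 for Ifng, -0.60 for Nkg7, -1.17 for Ccl5 and -1.80 for Eomes, where only 3 NK-like cells had a UMI. For Gzma every library put NK-like above CD8 cells with an interval clear of 0, including sham (2.58, 1.48 to 3.88) and isotype-treated stroke (3.59, 2.49 to 4.91). Only 8 of 40 NK-like cells had a Gzma UMI, however. A single cell held 14 of 27 in sham, 15 of 17 in isotype-treated stroke and all 132 with anti-VLA4. With anti-VCAM1 the counts were 3 against 2 UMIs. These intervals take UMIs of 1 cell as separate counts and do not cover the spread between cells. For Prf1 the intervals of sham, isotype-treated stroke and anti-VCAM1 all included 0. For Gzmb those of sham (0.57, -0.16 to 1.29) and isotype-treated stroke (1.30, -0.14 to 2.59) did, and those under either antibody did not. Tbx21 was at -0.02 (-0.66 to 0.60) in sham and -0.36 (-3.44 to 1.54) with anti-VLA4, and above 0 with clear intervals in the other libraries. The Klrd1 interval included 0 with anti-VLA4 only. Pooled values weight libraries by their cells, and no test across libraries was made.

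The comparison that the 4 libraries could replicate was CD8 cells against the 199 T-like cells with no Cd8 UMI (12, 94, 27 and 66 per library), since each library gave both sums. It was fitted with edgeR's quasi-likelihood test with the library as a block, and the genes of this account were used neither for the gate nor for clustering. Of 4192 genes tested, 161 were higher in CD8 cells (3.84%) and 142 were lower (3.39%) at a Benjamini-Hochberg adjusted p under 0.05. Of the 9 effector genes that passed the filter on low counts, 6 were higher, each in 4 of 4 libraries, and none was lower. Gzma did not pass the filter. The median log2 fold change of the 9 was 1.39, against -0.0021 over all genes, although genes pass the filter more readily where they are high. The p-values measure the spread between these 4 pooled libraries, which differ in treatment.

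Ccl5 had the smallest p. Its level was 5799 CPM in CD8 against 823 CPM in the other T-like cells of sham, 6380 against 1581 in isotype-treated stroke, 7000 against 1841 with anti-VCAM1 and 7187 against 1962 with anti-VLA4, with no overlap of the groups. The log2 fold change was 2.21 (SE 0.11, edgeR adjusted p = 1.33e-13). Nkg7 was also apart in every library, with 374, 416, 436 and 597 CPM in the cells without Cd8 UMIs, and a log2 fold change of 1.80 (SE 0.13, edgeR adjusted p = 7.77e-11). Gzmk had 15.0, 153, 96.9 and 149 CPM in the other T-like cells, all below the lowest CD8 value of 221, and its log2 fold change was 1.58 (SE 0.22, edgeR adjusted p = 1.71e-05).

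Prf1 had 15.0, 7.53, 9.69 and 41.5 CPM without Cd8 UMIs, and its lowest CD8 value was 59.6, so the groups did not overlap. Its log2 fold change was 2.07 (SE 0.42, edgeR adjusted p = 0.00171). Klrd1 had 105, 30.1, 165 and 158 CPM in the other T-like cells, below all CD8 values, and was 1.33 higher (SE 0.27, edgeR adjusted p = 0.00138). Eomes was at 0 in the 12 such cells of sham and at 35.1, 48.4 and 70.5 CPM elsewhere, the last close under the lowest CD8 value of 72.5. It was 1.39 higher (SE 0.32, edgeR adjusted p = 0.00486).

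Gzmb, Ifng and Tbx21 did not pass. Gzmb had 15.0, 25.1, 38.8 and 53.9 CPM in cells without Cd8 UMIs, which overlapped the CD8 range, and an adjusted p of 0.0668 (log2 fold change 1.08) by edgeR. Ifng had 135, 75.3, 116 and 83.0 CPM there, against 101 to 160 in CD8 cells, and an edgeR adjusted p of 0.161 (0.65). Tbx21 had 135, 95.3, 223 and 66.4 CPM, with the anti-VCAM1 value above that of its CD8 cells, and an edgeR adjusted p of 0.199 (0.63). A p that misses the threshold does not show that these genes were equal.

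Several calls depended on single libraries or on the other arm. Without the stroke isotype library, which held 94 of the 199 cells without Cd8 UMIs, 3 of the 6 genes kept their call (Ccl5, Gzmk and Nkg7), and the edgeR adjusted p was 0.0890 for Prf1, 0.0657 for Klrd1 and 0.135 for Eomes. Eomes was also lost in DESeq2 (adjusted p = 0.10) and against CD4 cells alone (edgeR adjusted p = 0.501), and Klrd1 after thinning (edgeR adjusted p = 0.113). Gzmb passed with no filter on low counts (edgeR adjusted p = 0.0265). Ifng passed without the sham library (edgeR adjusted p = 0.0310) and when each cell took its name from its own markers (edgeR adjusted p = 0.0485), and Tbx21 passed without the anti-VCAM1 library (edgeR adjusted p = 0.0160).

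**Figure D3:**
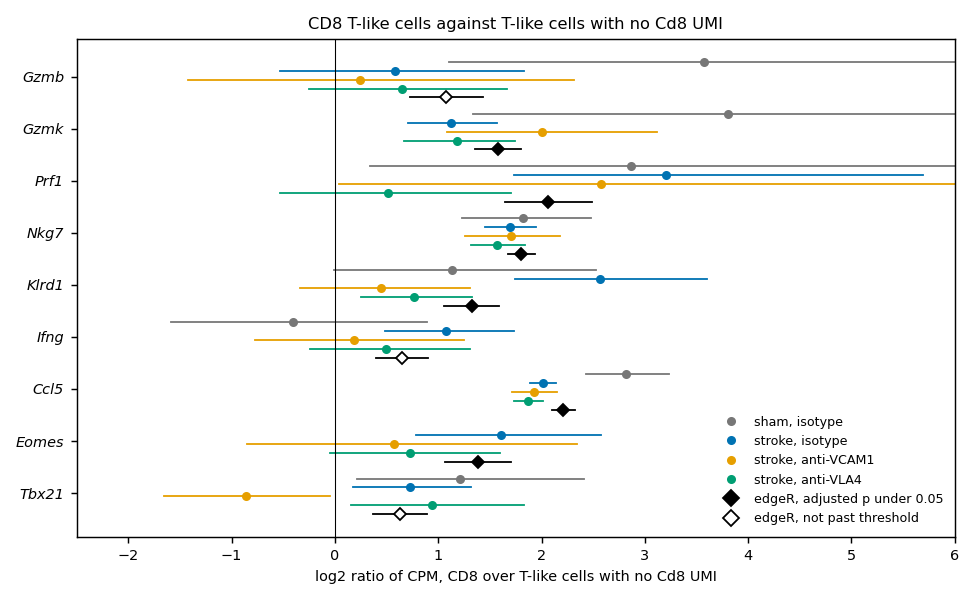
Log2 ratio of CPM in CD8 cells over T-like cells with no Cd8 UMI (x axis) for the 9 effector genes tested (y axis). Coloured points are libraries with 95% counting intervals, cut at the edge of the axis, diamonds are edgeR estimates with their standard error, and the sham point of Eomes is left out because its other arm was at 0. Ccl5, Nkg7 and Gzmk had intervals clear of 0 in every library, while Ifng and Tbx21 had a library on the other side of 0.

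The other pathway genes were read against the 3.84% of all genes that were higher and 3.39% that were lower. Of 9 other granule genes tested, 3 were higher in CD8 cells and none was lower, with a median log2 fold change of 0.53: Cst7, which encodes a cathepsin inhibitor of granules (1.27, edgeR adjusted p = 0.00233), Fasl, the death ligand (0.97, adjusted p = 0.00348), and the cathepsin gene Ctsd (0.66, adjusted p = 0.020). Of 8 NK-type receptor and adaptor genes, 4 were higher: Crtam (2.20, edgeR adjusted p = 0.00204), Cd160 (1.84, adjusted p = 0.00136), Klrc1 (1.5), the partner of the Klrd1 product, and the adaptor gene Hcst (0.61). Ccl4, a chemokine gene of activated lymphocytes, was 3.02 higher (edgeR adjusted p = 2.51e-09), and Xcl1, which attracts cross-presenting dendritic cells, was 1.30 higher (adjusted p = 4.41e-04), making 2 of the 3 cytokine and chemokine genes tested.

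Of 10 other transcription factor genes only Runx3, a CD8 lineage factor, was higher (1.35, edgeR adjusted p = 6.24e-05), and Prdm1 did not pass (0.51, adjusted p = 0.513). Cytokine receptor genes went the other way, with 3 of 5 lower and none higher. The interleukin-18 receptor genes Il18r1 (-1.85, edgeR adjusted p = 3.12e-06) and Il18rap (-1.2, adjusted p = 0.00268) were lower in CD8 cells, as was Il7r (-0.84). Of genes that receive the effector products, Ifngr1 was lower (-0.82, edgeR adjusted p = 2.75e-04) and H2-T23 did not pass (0.10, adjusted p = 0.893). Klrc1, Hcst, Ctsd and Il7r were named after their values had been seen.

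In single cells, CD8 cells mostly carried Gzmk without the other granzymes. A UMI of any of the 3 granzymes was found in 250 of 346 CD8 cells (72.3%), with a narrow range over the libraries of 75.7%, 70.8%, 74.2% and 71.7%. Of these, 202 had Gzmk only, 28 had Gzmk with Gzma or Gzmb, and 20 had Gzma or Gzmb only. A granzyme together with Prf1 was found in 75 CD8 cells. In T-like cells without a Cd8 UMI 47 of 199 (23.6%) had a granzyme UMI and 62 (31.2%) had no UMI of any effector gene, against 1 of 346 CD8 cells. NK-like cells had a granzyme UMI in 22 of 40 cells (55%), always Gzma or Gzmb.

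Eomes was found more often in cells with Gzmk than in cells without it. Among 549 T-like cells, 99 of the 271 with Gzmk had Eomes (36.5%), against 7.19% of those without Gzmk, and Pearson's r over the cells was 0.35. Within CD8 cells the shares were 36.1% and 16.4%. After thinning to 1000 UMIs the T-like shares were 14.8% and 4.15%, and the CD8 shares were 13.1% and 7.05%. Gzmk and Tbx21 had no such tie: 31.4% of T-like cells with Gzmk and 32.0% of those without had Tbx21. Gzma and Gzmb shared 7 of the 16 T-like cells with Gzma. Nkg7 and Ccl5 had the closest tie of the pairs read in T-like cells (395 of 424 cells with Nkg7, r 0.76). In CD8 cells their r was 0.45, and 0.21 after thinning. Gzma and Gzmb had an r of 0.36 in thinned CD8 cells, where 7 cells had Gzma. Cells share depth and library, so these are descriptions.

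Across subclusters of the T and NK cells, made without the effector genes, Gzmk was broad but not uniform. It was in 98 of 138 cells of subcluster 0 (led by Bsg and Dut), in 77 of 113 cells of subcluster 2 (Epha3, Tox) and in 20 of 24 cells of subcluster 8 (interferon response genes such as Ifit1 and Isg15), at 421, 371 and 460 CPM. In subcluster 1 (132 cells, St8sia1, Satb1, Cd40lg and Itga1) it was in 32 cells at 98.7 CPM, while Tbx21 was at 218 CPM. Tbx21 was at 212 CPM in subcluster 2, where Eomes reached 180 CPM, and at 48.2 CPM in subcluster 3 (78 cells, Lgals3, Ly6c2 and Cxcr3), of which 47 cells came from anti-VLA4. Gzma was not detected in subcluster 3, where a count of 0 allows up to 11.1 CPM on 3 UMIs.

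Subclusters 5 and 7 had little of the set. Subcluster 5 (38 cells, 29 of them from isotype-treated stroke) had Foxp3, the regulatory T cell factor, and Ikzf2 among its leading genes. Nkg7 was in 2 of its cells, Ccl5 in 5, Gzmk in 4 and Ifng in 6, and Gzma, Gzmb, Klrd1 and Eomes were in none. Subcluster 7 (26 cells) was led by Cd163l1, Trdc and Il23r with Il17a, genes of interleukin-17 producing gamma delta T cells. Ccl5, Gzmk, Gzmb, Gzma, Ifng, Klrd1 and Eomes had no UMI there, and Tbx21, Nkg7 and Prf1 were in 2, 1 and 1 of its cells. Gzmk, Gzmb and Ifng at 0 of 26 cells allow a share of up to 11.5% of cells with a UMI.

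**Figure D4:**
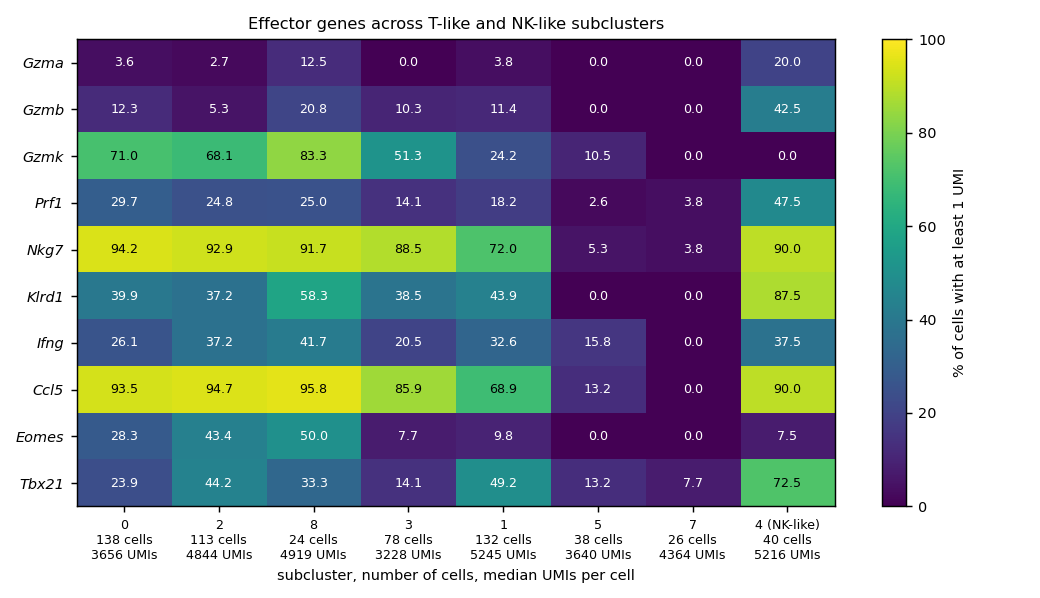
Share of cells with at least 1 UMI (colour and printed percent) for each effector gene (y axis) in the named subclusters of T-like and NK-like cells (x axis, with cell numbers and median UMIs). Ccl5 and Nkg7 were in most cells of every column but subclusters 5 and 7, Gzmk was absent from the NK-like column, and Klrd1 and Tbx21 were most frequent there.

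Between libraries, CD8 cells were compared on the log2 ratio of CPM, with at least 20 UMIs over the pair of libraries and 2-fold as the mark of a difference. The question of the first comparison was how CD8 cells late after stroke differ from those of sham cortex. In isotype-treated stroke over sham, none of the 10 genes was 2-fold higher (4.64% of 5176 genes were) and 2 were 2-fold lower (5.43% of genes were), Gzmb and Gzma. Gzmb was at -2.29 (-3.12 to -1.55), from 189 to 37.9 CPM, and at -1.05 when the highest cell of each library was left out. Gzma was at -1.15 with an interval that included 0 (-2.60 to 0.25), from 9 and 11 UMIs, and at 0.25 after thinning.

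Tbx21 lay just inside the 2-fold mark at -0.98 (-1.45 to -0.52), from 314 to 158 CPM. Of sham CD8 cells 22 of 37 had a Tbx21 UMI, against 50 of 120 in isotype-treated stroke, 20 of 62 with anti-VCAM1 and 31 of 127 with anti-VLA4. After thinning, which left out 1, 0, 2 and 3 CD8 cells under 1000 UMIs, the shares were 38.9% (23.1 to 56.5), 10.8% (5.90 to 17.8), 3.33% and 7.26%, and the stroke over sham ratio was -2.12. It was -0.51 when an unnamed subcluster with T cell and microglia genes was counted as T-like. Sham was the highest library on each of these measures. Subcluster 1, where Tbx21 was high, held 42.9% of the T-like cells of sham against 24.0%, 21.3% and 20.6% in the other libraries, and its part in the ratio was not tested.

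Gzmk went the other way at 0.59 (0.14 to 1.08), from 221 CPM in sham to 335 in isotype-treated stroke, and was at 0.07 after thinning. Ifng was at 0.65 (-0.02 to 1.40), at 1.07 with the highest cell of each library left out and at -0.06 after thinning. Nkg7 (0.03), Eomes (0.04) and Ccl5 (0.14, 0.05 to 0.23; 0.0093 after thinning) were close to even, and Prf1 (-0.57, -1.30 to 0.19) and Klrd1 (-0.33, -0.83 to 0.18; 0.20 after thinning) had intervals that included 0. Summed over all T-like cells, 2 of the 10 genes were 2-fold lower (4.10% of genes) and none was 2-fold higher (6.37%): Gzmb at -2.16 and Tbx21 at -1.01. CD8 cells made up 75.5% of T-like cells in sham and 55.3% in isotype-treated stroke, and this share moves with the T-like sums.

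The antibody comparisons asked how cells sampled under a blocking antibody differed from those of isotype-treated stroke, and both used the stroke isotype library as control. With anti-VCAM1, none of 9 genes tested in CD8 cells was 2-fold higher (2.25% of genes) or lower (4.24%). Ccl5 alone had an interval clear of 0, at 0.13 (0.06 to 0.21). Gzmk was at 0.23 (-0.11 to 0.56), Gzmb at 0.28 (-0.79 to 1.30), Ifng at -0.28 (-0.85 to 0.27), Tbx21 at -0.37 (-0.96 to 0.19) and Eomes at -0.58 (-1.35 to 0.13). After thinning Tbx21 was at -1.97 and Prf1, at -0.30 (-1.16 to 0.49) on all UMIs, was at 0.77. With 62 and 120 cells, the differences on all UMIs other than that of Ccl5 could not be separated from counting error. No interval is given for the thinned values.

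With anti-VLA4, 1 of 9 genes was 2-fold higher in CD8 cells (3.27% of genes) and none was lower (2.90%). Gzmb was at 1.14 (0.41 to 1.95), from 37.9 to 84.9 CPM, but a single cell held 17 of its 47 UMIs. The ratio was 0.81 without the highest cell of each library, 0.53 without cells above 15000 UMIs and 0.21 after thinning. Klrd1 at 0.55 (0.19 to 0.92), Nkg7 at 0.40 (0.26 to 0.53) and Ccl5 at 0.17 (0.11 to 0.24) were higher by less than 2-fold with intervals clear of 0. Gzmk was at 0.02 (-0.27 to 0.31), Ifng at -0.44 (-0.92 to 0.02; 0.12 after thinning), Eomes at 0.11 (-0.41 to 0.63; -0.78 after thinning) and Prf1 at -0.37 (-1.07 to 0.29). Endothelial markers summed to 442 and 401 CPM in CD8 cells of anti-VCAM1 and anti-VLA4 against 77.5 in isotype-treated stroke and 87.6 in sham, with all 8 markers detected under either antibody. Markers of NK cells summed to 126 CPM in CD8 cells of anti-VLA4, with 4 of 8 detected, against 77.5 in isotype-treated stroke with 4 detected, 59.3 in anti-VCAM1 and 78.4 in sham with 2 detected in each. Of the NK marker sums, Klre1 alone gave 93.9 CPM with anti-VLA4 and 42.9 CPM in isotype-treated stroke. The part of the endothelial and NK markers in the ratios was not tested.

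In all T-like cells, anti-VCAM1 gave no effector gene past 2-fold of 10 (2.13% of genes higher, 5.72% lower), with Klrd1 at 0.79 (0.38 to 1.2). Anti-VLA4 gave 1 gene higher (2.24% of genes) and 1 lower (2.69%), Gzmb at 1.18 (0.57 to 1.86) and Gzma at -1.65 (-3.34 to -0.46). The Gzma value came from 6 against 26 UMIs, 15 of the 26 from 1 cell, and too few UMIs were left to count it when that cell was dropped. Klrd1 was at 0.94 (0.61 to 1.29). Summed NK markers in these T-like cells were 200.4 CPM, against 101 in isotype-treated stroke, with 6 of 8 detected in both. Klre1 alone gave 98.3 and 45.1 CPM of these sums, and the part of the NK markers was not tested. The CD8 share of T-like cells was 69.7% and 65.5% under the antibodies against 55.3% in isotype-treated stroke, beside these sums.

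Single calls among the pathway genes in CD8 cells stand beside 4.64% of all genes 2-fold higher and 5.43% 2-fold lower in stroke over sham, and no more is read from them. In stroke over sham 1 of 8 NK-type receptor genes was 2-fold lower, the activating receptor gene Klrk1 at -1.2 (-1.62 to -0.78), and Cd226 was at -0.90 (-1.27 to -0.53). Of 10 granule genes 1 was 2-fold higher, the vesicle fusion gene Stx11 at 1.33 from 3 and 22 UMIs (-0.34 to 3.77). Of 4 cytokine and chemokine genes, 1 was 2-fold lower, Tnf at -1.32 (-1.89 to -0.77), with Ccl3 at -0.64 (-1.53 to 0.27). The granule genes Rab27a, which docks granules, and Srgn, which encodes their proteoglycan, were at -0.92 (-1.49 to -0.36) and -0.65 (-0.89 to -0.41), and Il7r was at 0.98 (0.46 to 1.55). None of 10 transcription factor genes passed 2-fold.

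With anti-VCAM1 (2.25% of all genes higher, 4.24% lower), Tnf was 1.52 higher (1.03 to 2.03), the 1 call among 4 cytokine and chemokine genes, and Zeb2, a factor of terminally differentiated effector cells, was at 0.98 (0.16 to 1.84). With anti-VLA4 (3.27% of all genes higher, 2.90% lower), 2 of 11 transcription factor genes were 2-fold higher, Zeb2 at 1.19 (0.51 to 1.94) and Id3, a memory-associated regulator, at 2.24 (1.05 to 3.92) from 6 and 28 UMIs. Stx11 and Id3 were named after their values had been seen. The NK-type receptor gene Klre1, which is also among the NK markers summed above, was at 1.11 (0.43 to 1.87). Klrc2 was at -0.89 (-1.75 to -0.10) and Il18rap at -1.01 (-1.99 to -0.15), the 1 cytokine receptor gene past 2-fold of 6.

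Receptors for the effector products were found in several classes. Ifngr1, a chain of the interferon gamma receptor, measured 1220 CPM in NK-like, 678 in T-like, 496 in microglia-like, 326 in border-macrophage-like and 64.3 in endothelial-like cells, pooled over libraries. Ifngr2, its signalling partner, was at 230 CPM in microglia-like and 190 CPM in border-macrophage-like cells but at 7.16 CPM in T-like cells, from 18 UMIs. Ccr1, a receptor for the Ccl5 product, was highest in border-macrophage-like cells among the named classes read (141 CPM, against 3.59 in microglia-like cells). The unnamed cluster led by Cd209a was not read for these receptors. H2-T23, which encodes the class I molecule read by the Klrd1 product, ranged from 108 CPM in microglia-like to 225 CPM in T-like cells. The granzyme B inhibitor gene Serpinb9 measured 278 CPM in NK-like, 69.7 in endothelial-like, 40.6 in T-like and 7.76 in microglia-like cells.

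Genes most like the effector set were found by Pearson correlation of log2(CPM + 10) with the mean of the standardised effector genes over 29 profiles of a class in a library. These were Samd3 (r 0.990), Sytl3 (0.990), Klrc1 (0.989), Xcl1 (0.986) and Fasl (0.985). Fasl, for example, measured 199 CPM in CD8, 116 in T-like cells without Cd8 UMIs and 299 in NK-like cells and had no UMI in microglia-like cells. Xcl1 measured 322 CPM in CD8, 135 in T-like cells without Cd8 UMIs and 1388 in NK-like cells. The profiles share libraries, and the contrast of lymphocytes with all other cells dominates them.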

How the data were processed

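The deposited files hold UMI counts per gene and cell. Per the file headers they were made with Cell Ranger 7.0.1, while the submitters' processing notes list Cell Ranger 6.0.0 and Seurat 4.3.0.1. The 10 genes, the pathway lists and the tests were chosen with earlier results of these data known. Cells with at least 500 UMIs, 200 genes and at most 10% mitochondrial UMIs were kept, and doublets called by Scrublet were left out (11, 24, 63 and 124 cells). Clustering (scanpy 1.11.5, 2000 variable genes, 30 components, Leiden resolution 1) left out 208 genes, among them the effector genes and lists; T and NK clusters were reclustered (20 components, resolution 0.5). Classes were named from marker lists, and 2 limits used in naming were set after clusters were seen. Counts were summed per class and library, with exact Poisson or Clopper-Pearson 95% intervals, and log2 ratios took a pseudocount of 1 CPM with conditional binomial intervals. CD8 sums were tested with edgeR 4.0.16 (R 4.3.3; DESeq2 1.42.0 as an alternative), tested on simulated data first. All 10 genes were followed in each comparison, but the text does not give the ratio of each in every one. Of each pathway list, up to 2 genes per comparison were picked by the largest absolute log2 ratio and a minimum of 50 UMIs. Their ratios between libraries are given for CD8 cells only. Some picked genes are left out, among them Cd226 with anti-VCAM1 and Klf2 with anti-VLA4, both with intervals clear of 0. Limits for a count of 0 are set at 3 counts, which is lower than the exact two-sided bound. Likeness used genes with at least 200 UMIs over classes of at least 20 cells. One gene of the pathway lists is not reported here.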

Additional observations from a re-analysis of the deposited data

Results flagged for a closer look

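Of the effector genes with at least 20 UMIs in a library, 2 had a CD8 over no-Cd8 difference that pointed in different directions in different libraries, and whether libraries differed was not tested. For Ifng the log2 ratio was -0.41 in sham, 1.08 in stroke with isotype, 0.18 with anti-VCAM1 and 0.50 with anti-VLA4. For Tbx21 it was 1.21, 0.73, -0.86 and 0.94 in the same order. Gzma also differed in direction, on fewer UMIs: CD8 against other T-like cells had 9 against 0, 11 against 15, 2 against 4 and 6 against 0.

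Signal was also seen in cells outside the comparisons. In the unnamed cluster led by Cd209a, Ccl5 measured 441 CPM in stroke with isotype and 78.8 CPM with anti-VCAM1, against 8.19 CPM in sham. Of its 502 UMIs in stroke with isotype, 92.6% were in 5 cells. Klrd1 measured 235 CPM there in stroke with isotype, spread over 50 of 112 cells, against 128 CPM in sham. With anti-VCAM1 and anti-VLA4 it was at 138 and 152 CPM, with intervals that overlapped that of sham. In the unnamed subcluster of 27 cells that held both T cell and microglia genes, Gzmk reached 188 CPM and Ccl5 1763 CPM with anti-VCAM1, and Tbx21 reached 274 CPM in stroke with isotype. The median depth of those 27 cells was 12042 UMIs, and 9 of them came from anti-VCAM1 and 8 from stroke with isotype.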

How the results depend on the processing

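With 1 library per group and 37 to 127 CD8 cells in each, counts of effector genes past 2-fold rested on few UMIs. In stroke over sham the 2 lower genes in CD8 cells became 1 after thinning, with the mixed subcluster counted, with a pseudocount of 10 CPM, with TMM factors or without the highest cell of each library. That last setting also gave 1 higher gene in CD8 cells, Ifng, against 0. In T-like cells the 2 lower genes became 1 at Leiden resolution 0.5, with cells named on their own markers, thinned, with the mixed subcluster, with a pseudocount of 10 CPM or with TMM factors, and 0 without the highest cells. The 1 higher gene with anti-VLA4 became 0 in CD8 and T-like cells after thinning, without cells above 15000 UMIs, with the larger pseudocount or without the highest cells. The 1 lower gene in T-like cells with anti-VLA4 became 0 after thinning or without the highest cells. Counting the mixed subcluster gave 1 higher gene in T-like cells in stroke over sham, 1 lower with anti-VCAM1, 2 higher with anti-VLA4, and 1 lower in CD8 cells with anti-VLA4. Gzma in stroke over sham reversed to 0.25 in thinned CD8 cells.

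In the CD8 test, the 161 higher and 142 lower genes became 91 and 61 with DESeq2, 50 and 32 against CD4 cells alone and 66 and 39 after thinning, where 949 genes were tested and 3 of 4 effector genes were called. Without a filter 254 genes were lower. With no replicate block 73 genes were higher and the same 6 effector genes were called. Leaving out each library in turn gave 83 to 165 higher genes, 78 to 196 lower genes and 3 to 7 effector genes. Where not given above, the cause was not tested. The mixed subcluster, the shared barcodes and the limit of 15000 UMIs were chosen as alternatives after seeing the data.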

Other observations

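Of the other granzyme genes, Gzmc had 36 UMIs in 10 cells, all of them in T-like or NK-like cells. Gzmm had 103 UMIs in 99 cells, only 13 of them in T-like or NK-like cells. Gzmd, Gzme, Gzmf, Gzmg and Gzmn had no UMI in any kept cell.

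The cells richest in granzymes differed in what else they held. The sham CD8 cell with 27 Gzmb UMIs had 6862 UMIs in all, with 7 Ifng, 66 Ccl5, 3 Gzmk and no Gzma UMIs. A cell of stroke with isotype with neither Cd8 nor Cd4 had 15 Gzma and 3 Gzmk UMIs and no Gzmb, Prf1 or Nkg7 UMI. An NK-like sham cell with 46 Klrd1 and 14 Gzma UMIs had no Gzmb UMI.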
